A study of Mus musculus with 4 samples.

Results

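The *Oas1* genes encode 2′-5′-oligoadenylate synthetase 1 and its relatives. The mouse genome holds 8 of them, *Oas1a* to *Oas1h*, in a single cluster, and all 8 were chosen by symbol. Of these, 7 had a row among the 21957 genes of the expression table, and *Oas1b* had none. The table holds FPKM values, fragments scaled to the length of the transcript and to the size of the library, so that levels of different genes can be set side by side per length. There were 4 libraries, each made from a pool of 100 denuded oocytes of B6D2F1 hybrid females (C57BL/6 x DBA, 6 to 8 weeks old) that had been primed with gonadotropin (PMSG), and kept in M16 medium. GV oocytes are arrested at the germinal vesicle stage and were taken at 0 h without treatment. MII oocytes, which had completed the first meiotic division, were cultured for 12 h without drug. TubA-10 and TubA-20 oocytes were cultured for 12 h with 10 or 20 µM tubastatin A, an inhibitor of the deacetylase HDAC6 that was dissolved in DMSO. MII oocytes were taken with an extruded polar body, and no such selection is described for the TubA oocytes. The doses come from the sample titles, while the treatment fields of the same samples read 20 µM for TubA-10 and 11 µM for TubA-20, and the title of the MII sample calls it an embryo. Each condition was 1 library, so there is no spread between replicates and no p-value, and a difference below compares libraries. A fold is a ratio of FPKM + 1 on the log2 scale, which understates the change of genes near 1 FPKM, and a gene was called higher or lower when it passed 2-fold.

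The libraries carried the transcripts of oocytes. All 12 oocyte markers on the list (zona pellucida, germ cell and oocyte growth factor genes) reached 5 FPKM, with sums of 13880, 16039, 16639 and 16126 FPKM (GV, MII, TubA-10, TubA-20). They did not move alike: in TubA-20 against GV, *Zp1*, *Zp2*, *Zp3* and *Figla* were lower past 2-fold and *Gdf9* was higher, and 3 of the 12 were lower in TubA-20 against MII. The 12 cumulus and granulosa cell markers summed to 16.3, 11.7, 9.06 and 14.6 FPKM. Of these, *Cyp19a1* was at 6.14, 8.60, 7.42 and 10.3 FPKM, *Inha* was at 7.50 FPKM in GV and at most 0.314 FPKM elsewhere, and *Foxl2* was listed at 0 in all 4 libraries. *Ptx3* (at most 1.19 FPKM) and *Tnfaip6* (at most 1.57 FPKM) were listed at 0 in GV and were highest in TubA-20. The 12 blood and immune cell markers summed to between 7.51 and 8.51 FPKM. Most of this was *Csf1r*, at 5.68, 5.15, 6.30 and 6.34 FPKM, and *Cd68*, at 1.72, 2.26, 1.63 and 1.73 FPKM, while *Hba-a1*, *Hbb-bs* and *Tyrobp* were listed at 0 throughout.

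OAS enzymes are sensors of viral RNA. On binding double-stranded RNA, an active OAS protein joins ATP into 2-5A, a short oligoadenylate that acts as an antiviral signal in the cell. In most cells interferon raises OAS transcription through interferon-stimulated response elements in the promoters. Rodents expanded the *Oas1* gene into a family, and several of its proteins cannot make 2-5A. OAS1D, a protein of the oocyte cytoplasm, is known to lack synthetase activity and to dampen that of OAS1A, and *Oas1b* is the flavivirus resistance gene, which is truncated in common laboratory strains.

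The codons of the active site divide the family. OAS enzymes hold the metal ions for catalysis with 3 aspartates, which in *Oas1a* are codons 76, 78 and 149. The 33 bases around the first pair are given below because they hold the codons by which the members differ, read from the annotated coding sequences on GRCm38 (mm10), 5′ to 3′ along the gene, with the codons of the pair in capitals.
Oas1a: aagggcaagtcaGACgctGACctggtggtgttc
Oas1b: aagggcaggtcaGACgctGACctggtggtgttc
Oas1g: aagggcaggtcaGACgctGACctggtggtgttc
Oas1h: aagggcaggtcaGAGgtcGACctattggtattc
Oas1c: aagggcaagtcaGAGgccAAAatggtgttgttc
Oas1f: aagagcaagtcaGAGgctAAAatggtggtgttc
Oas1d: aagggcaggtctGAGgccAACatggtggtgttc
Oas1e: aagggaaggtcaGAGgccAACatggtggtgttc
The windows are in exon 2 of each gene, or exon 3 for *Oas1c*. They lie at chr5:120905822-120905854 (minus strand) for *Oas1a*, chr5:120814444-120814476 (plus) for *Oas1b*, chr5:120885999-120886031 (minus) for *Oas1g* and chr5:120862563-120862595 (plus) for *Oas1h*. Those of the others are chr5:120808186-120808218 (minus) for *Oas1c*, chr5:120848199-120848231 (plus) for *Oas1f*, chr5:120915692-120915724 (plus) for *Oas1d* and chr5:120794331-120794363 (minus) for *Oas1e*.

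*Oas1a*, *Oas1b* and *Oas1g* kept all 3 aspartate codons. The first position was GAG, a glutamate codon, in the other 5 members. The second was AAA (lysine) in *Oas1c* and *Oas1f*, AAC (asparagine) in *Oas1d* and *Oas1e*, and GAC (aspartate) in *Oas1h*. The third aspartate codon, GAT, was kept by *Oas1c*, *Oas1d*, *Oas1e* and *Oas1f*, so that each had 1 of 3, and *Oas1h* also had 1 of 3, since its codon 156 was CAT, which encodes histidine. The windows around the third position of *Oas1a* and *Oas1h* are given with that codon in capitals, at chr5:120905606-120905635 (minus) and chr5:120862782-120862811 (plus).
Oas1a: gaggtggagtttGATgtgctgccagccttt
Oas1h: gaggtggaatttCATatgcagacagcctat

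The expression values divided the family along the same line. *Oas1c*, *Oas1d*, *Oas1e*, *Oas1f* and *Oas1h*, which lack 2 of the 3 aspartate codons, were above 10 FPKM in all 4 libraries. The members with a row that keep all 3, *Oas1a* and *Oas1g*, were under 1 FPKM in all 4. This is a description of 7 genes in 4 libraries, with no test.

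*Oas1e* was at 830 FPKM in GV and 802 in MII, with TubA-10 at 871 and TubA-20 at 719. Its highest value was 1.21 times its lowest, the narrowest range of the 5 abundant members, and it ranked between 81 and 128 among the 21957 genes of each library. The gene (ENSMUSG00000066867.8) lies at chr5:120786226-120795530 on the minus strand and has 6 exons and 356 codons.

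*Oas1d*, the gene of the oocyte protein without synthetase activity, was at 465 FPKM in GV and 873 in MII, with TubA-10 at 687 and TubA-20 at 975. GV was the lowest library and TubA-20 the highest, at 2.10 times the GV level, and TubA-10 lay between GV and MII. Its rank was 262 (GV), 75 (MII), 120 (TubA-10) and 81 (TubA-20). The gene (ENSMUSG00000032623.9) lies at chr5:120914536-120921652 on the plus strand, with 6 exons and 361 codons.

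*Oas1h* was at 670 FPKM in GV and 290 in MII, with TubA-10 at 464 and TubA-20 at 288. It was highest in GV, MII and TubA-20 were nearly level, and TubA-10 again lay between GV and MII. The gene (ENSMUSG00000001168.16) lies at chr5:120861421-120873506 on the plus strand and encodes 369 codons in 6 exons.

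*Oas1c* was at 419 FPKM in GV and 367 in MII, with TubA-10 at 464 and TubA-20 at 296. TubA-20 was the lowest and TubA-10 the highest, at 1.57 times the TubA-20 level. The gene (ENSMUSG00000001166.17) lies at chr5:120800194-120812514 on the minus strand and has 7 exons and 362 codons.

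*Oas1f*, the least abundant of the 5, was at 76.9 FPKM in GV and 39.6 in MII, with TubA-10 at 83.2 and TubA-20 at 22.3. GV and TubA-10 were close to each other, MII was lower and TubA-20 the lowest, so that the highest library was 3.72 times the lowest, the widest range of the 5. Its rank was 1538 (GV), 2498 (MII), 1371 (TubA-10) and 3577 (TubA-20). The gene (ENSMUSG00000053765.4) lies at chr5:120847367-120857986 on the plus strand, with 6 exons and 364 codons.

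*Oas1g*, which keeps the active site, was at 0.889 FPKM in GV and 0.194 in MII, with TubA-10 at 0.404 and TubA-20 at 0.0584. *Oas1a*, an active synthetase of mouse tissues, was at 0.0553, 0.0681 and 0.0655 FPKM in GV, MII and TubA-10 and was listed at 0 in TubA-20. Both sit at the low end of the table, where a value can rest on very few fragments and fold changes say little. The highest *Oas1g* value was 15.2 times its lowest. Its log2 ratio for TubA-20 against GV was -0.84, or -2.64 with a pseudocount of 0.1. *Oas1g* was highest in GV, where the granulosa cell markers had their highest sum and *Inha* its highest value but *Cyp19a1*, *Ptx3* and *Tnfaip6* were not highest, and the part of other cells in its value was not tested. *Oas1g* (ENSMUSG00000066861.14) lies at chr5:120876142-120887613 and *Oas1a* (ENSMUSG00000052776.10) at chr5:120896256-120907521, both on the minus strand with 7 exons and 367 codons.

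**Figure D1:**
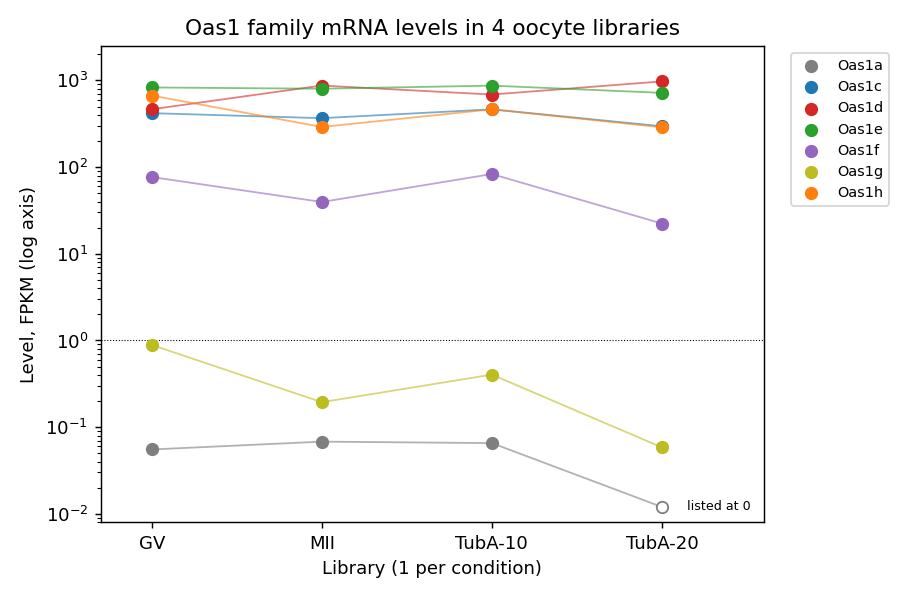
Level of each *Oas1* member with a row (FPKM, log axis) in the 4 libraries, 1 library per condition, with lines joining the values of a gene and the dotted line at 1 FPKM. The 5 members without the full active site lie between 22.3 and 975 FPKM, *Oas1a* and *Oas1g* lie below 1 FPKM, and the open point marks *Oas1a* listed at 0 in TubA-20.

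Near-identical genes can trade reads, and exact matches as long as a read were found in the low pair only. Matches with mismatches and the DBA alleles were not examined. Of the 100-base stretches of the *Oas1a* transcript, the length of 1 read, 40.9% occurred unchanged in *Oas1g*, and 38.2% of those of *Oas1g* occurred in *Oas1a*, so the split between these genes is uncertain. The other 6 members shared no 100-base stretch with each other or with the pair. Coding sequences of the 5 abundant members were 76.1% to 90.9% identical over 10 pairs, with *Oas1d* and *Oas1e* the closest pair, and *Oas1a* and *Oas1g* were 96.7% identical.

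The order of the members changed between libraries. In GV it ran *Oas1e*, *Oas1h*, *Oas1d*, *Oas1c*, *Oas1f*. In MII and in TubA-20 it ran *Oas1d*, *Oas1e*, *Oas1c*, *Oas1h*, *Oas1f*. In TubA-10 it ran *Oas1e*, *Oas1d* and then *Oas1h* and *Oas1c*, both at 464 FPKM, with *Oas1f* last. With 1 library each, neighbours in these orders could not be set against a spread, and *Oas1c* against *Oas1h* in TubA-20 (296 and 288 FPKM) is the closest pair besides that in TubA-10.

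The summed level of the family moved little while its make-up changed. The 7 members summed to 2461 FPKM in GV and 2372 in MII, with TubA-10 at 2570 and TubA-20 at 2300, which was 0.395%, 0.417%, 0.435% and 0.367% of all FPKM in the library. The log2 ratio of the sums was -0.05 for MII against GV, 0.06 for TubA-10 against GV and -0.10 for TubA-20 against GV, and the first 2 change sign when the libraries are scaled another way. The share of *Oas1d* in the sum was 18.9% (GV), 36.8% (MII), 26.7% (TubA-10) and 42.4% (TubA-20). The share of *Oas1h* was 27.2%, 12.2%, 18.1% and 12.5% in the same order. *Oas1e* held 33.7%, 33.8%, 33.9% and 31.3%, and *Oas1c* 17.0%, 15.5%, 18.1% and 12.9%. Shares within the family do not depend on how the libraries are scaled. Since an FPKM is itself a share of the library, it shows neither the number of oocytes in a pool nor the RNA per oocyte. The RNA was selected with oligo(dT), so a level is that of RNA caught by its poly(A) tail, and tail length was not measured.

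**Figure D2:**
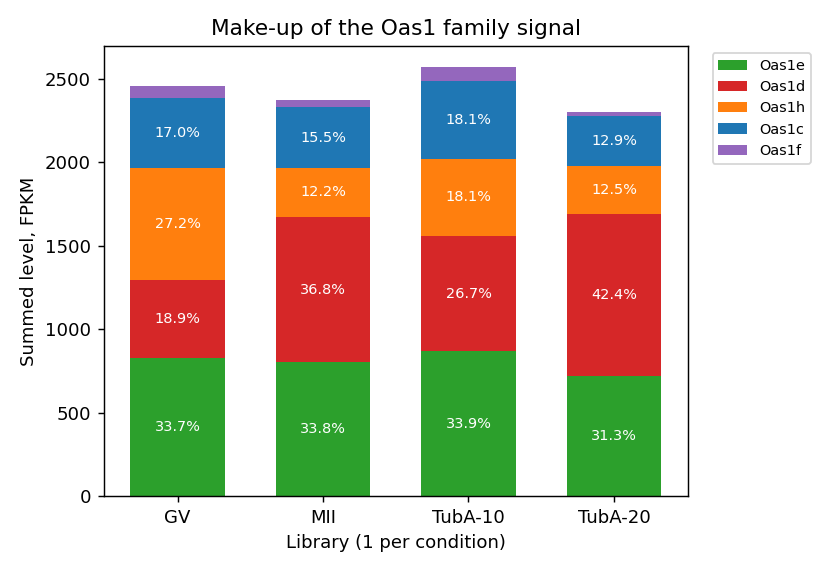
Summed level of the 5 abundant *Oas1* members (FPKM, linear axis from 0) in each library, 1 library per condition, with each member's share of the family sum printed in its segment. The sums lie between 2300 and 2570 FPKM, and the *Oas1d* segment is 18.9% of the GV bar and 42.4% of the TubA-20 bar.

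The first question was how the family differs between oocytes before and after maturation without the drug. *Oas1h* was lower in MII than in GV past 2-fold (log2 ratio -1.20), and it was the only one of the 7 members past 2-fold. For the background, 8.34% of all 21957 genes were lower in MII past 2-fold and 3.05% were higher, or 22.2% and 9.39% of the 6156 genes that reached 10 FPKM in either library. *Oas1d* and *Oas1f* were just inside the threshold on either side of 0, at 0.91 and -0.94. *Oas1c* was at -0.19, *Oas1e* at -0.05, which is above 0 under other scalings. Of the genes with at least 1 FPKM in all 4 libraries, the median was higher than in GV by a log2 change of 0.14 (MII), 0.16 (TubA-10) and 0.23 (TubA-20). Relative to that shift, *Oas1h* was at -1.35, *Oas1f* at -1.08 and *Oas1d* at 0.76 in MII, while equal FPKM sums put *Oas1d* at 1.04. The count of members past 2-fold was 2 under each of these scalings, and also with a pseudocount of 0.1, where *Oas1g* was at -1.75.

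At 10 µM, none of the 7 members was past 2-fold from GV, beside 5.6% of all genes lower and 0.742% higher (15.5% and 1.84% of the 6035 genes that reached 10 FPKM). *Oas1d* had a log2 ratio of 0.56 and *Oas1h* of -0.53, in both cases nearer to 0 than their MII values of 0.91 and -1.20. *Oas1f* stood at 0.11 beside -0.94 in MII. *Oas1c* was at 0.15 and *Oas1e* at 0.07, and these and *Oas1f* fall below 0 when the median change is set to 0. The TubA-10 and MII ratios share the GV library.

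At 20 µM, 3 of the 7 members were past 2-fold from GV. *Oas1d* was higher (1.07) and *Oas1h* (-1.22) and *Oas1f* (-1.74) were lower, beside 7.61% of all genes higher and 11.7% lower, or 22.7% and 27.7% of the 6283 genes that reached 10 FPKM. Changes of this size were thus common in that comparison. *Oas1c* was at -0.50 and *Oas1e* at -0.21. Relative to the shift of the median gene, *Oas1d* came to 0.84, under 2-fold, while *Oas1h* (-1.44) and *Oas1f* (-1.95) stayed past it.

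**Figure D3:**
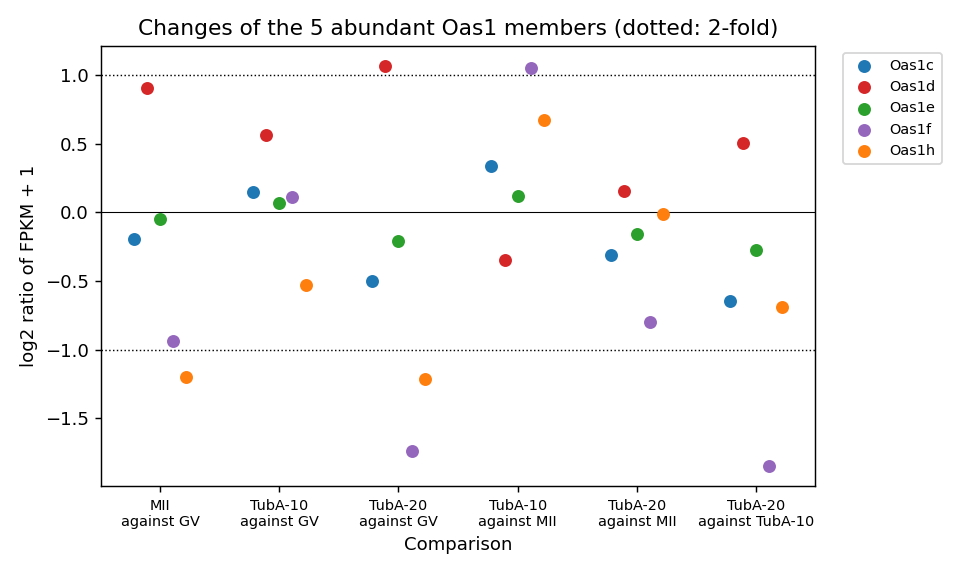
Log2 ratio of FPKM + 1 for the 5 abundant members in the 6 comparisons of libraries, with dotted lines at 2-fold; each point compares 1 library with 1 library, so there are no error bars. *Oas1f* lies above the upper line for TubA-10 against MII (1.05) and below the lower line for TubA-20 against TubA-10 (-1.85).

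The second question was how oocytes cultured with the drug differ from those matured without it for the same 12 h. The paper reports that drug-treated oocytes were impaired in passing from meiosis I to meiosis II, while MII oocytes had completed the first division. Drug and meiotic stage therefore cannot be told apart in these comparisons. In TubA-10 against MII, *Oas1f* was higher past 2-fold (83.2 against 39.6 FPKM, log2 ratio 1.05), a call that ends at 0.998 when the FPKM sums are made equal. Only 0.515% of all genes were past 2-fold higher in that comparison and 0.128% were lower. Among the 5689 genes that reached 10 FPKM these shares were 1.34% and 0.193%, and 99.0% had a smaller log2 ratio than *Oas1f*. *Oas1h* was next at 0.67, above 93.6% of those 5689 genes, then *Oas1c* at 0.34 and *Oas1e* at 0.12, and *Oas1d* stood at -0.34.

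In TubA-20 against MII, none of the 7 members was past 2-fold, beside 2.44% of all genes lower and 0.328% higher (6.03% and 0.463% of the 5620 genes that reached 10 FPKM). *Oas1h* stood at -0.01 and *Oas1d* at 0.16, so both had nearly the level of MII. *Oas1f* was at -0.80, *Oas1c* at -0.31 and *Oas1e* at -0.16.

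Between the doses, *Oas1f* was lower in TubA-20 than in TubA-10 past 2-fold (22.3 against 83.2 FPKM, log2 ratio -1.85). Of the 5806 genes that reached 10 FPKM, 2.53% had a smaller log2 ratio. *Oas1f* was the only member past 2-fold, beside 5.52% of all genes lower and 0.66% higher, or 14.3% and 1.62% of those 5806 genes. *Oas1h* was at -0.69, *Oas1c* at -0.65, *Oas1e* at -0.28 and *Oas1d* at 0.50. *Oas1d* was thus the only abundant member with a positive ratio here, and the log2 ratio of the sums was -0.16. Over the 7 members the median log2 ratio to GV was -0.19 (MII), 0.07 (TubA-10) and -0.50 (TubA-20), that to MII was 0.23 (TubA-10) and -0.16 (TubA-20), and it was -0.41 between the doses, beside an all-gene median of 0 in each comparison, a median that undetected genes hold at 0. For genes that reached 10 FPKM the medians in the same order were 0.12, 0.16, 0.27, 0.00, 0.10 and 0.15. Those of the 5 abundant members alone were -0.19, 0.11, -0.50, 0.34, -0.16 and -0.65.

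The distance between members was taken as the Euclidean distance over the 3 log2 ratios to GV. *Oas1c* and *Oas1e* were the closest pair, at 0.34, and *Oas1f* and *Oas1h* followed at 0.87. *Oas1d* stood farthest from the rest, between 1.67 from *Oas1e* and 3.39 from *Oas1f*, although its coding sequence is closest to that of *Oas1e*.

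The genes most like each member were taken outside the OAS genes from 6363 genes that reached 10 FPKM in a library, by the same distance over 4 libraries. These names depend on the pseudocount: with 0.1 in place of 1, 1 of 5 names was shared for *Oas1d* and for *Oas1h*, 3 for *Oas1c*, 4 for *Oas1e* and 5 for *Oas1f*. For *Oas1d* they were *Itprid2*, *Taf3*, *Stard13*, *Mphosph8* and *1190002N15Rik*, at distances of 0.03 to 0.04, and *Taf3* had 70.8, 131, 104 and 151 FPKM (GV, MII, TubA-10, TubA-20). For *Oas1h* they were *Sult2b1*, *Slc35e4*, *Prelp*, *Mettl7a3* and *Abcb4* (0.08 to 0.16). For *Oas1f* they were *Ndufb3*, *Cisd1*, *Slc15a4*, *Coro1b* and *Mpzl1* (0.12 to 0.26), and *Ndufb3* had 112, 59.3, 121 and 35.8 FPKM. *Oas1c* was most like *Fbxo36*, *Prune1*, *Tprgl*, *Fis1* and *Tctex1d2* (0.06 to 0.10), and *Oas1e* was most like *Dnajc4*, *Wdtc1*, *Bnc1*, *Dlgap5* and *Med14* (0.06 to 0.09).

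The cluster spans 135.427 kb at chr5:120786226-120921652, and the near-silent pair lies inside it. The order is *Oas1e* and *Oas1c* on the minus strand, *Oas1b*, *Oas1f* and *Oas1h* on the plus strand, *Oas1g* and *Oas1a* on the minus strand and *Oas1d* on the plus strand. *Oas1g* and *Oas1a*, both under 1 FPKM, thus lie between *Oas1h* and *Oas1d*. *Oas1b* (chr5:120812635-120824163) is annotated as a polymorphic pseudogene of 251 codons. An antisense gene, *Gm43069*, overlaps *Oas1e* and *Oas1c* on the plus strand and had no row in the table. The libraries were stranded, so its reads would be told apart.

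On the side of *Oas1e*, the 3 protein-coding neighbours were all under 1 FPKM. They are *Dtx1*, at most 0.102 FPKM, *Oas2*, at most 0.125 FPKM, and *Oas3*, at most 0.639 FPKM. On the side of *Oas1d*, *Rph3a* was at 19.8, 25.8, 22.1 and 34.6 FPKM and *Ptpn11* at 24.9, 46.0, 35.7 and 51.0 FPKM (GV, MII, TubA-10, TubA-20). *Ptpn11*, which encodes the phosphatase SHP2, had log2 ratios to GV of 0.86, 0.50 and 1.01, beside 0.91, 0.56 and 1.07 for *Oas1d*. *Rpl6*, a ribosomal protein gene, was at 212, 33.1, 29.4 and 14.2 FPKM.

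**Figure D4:**
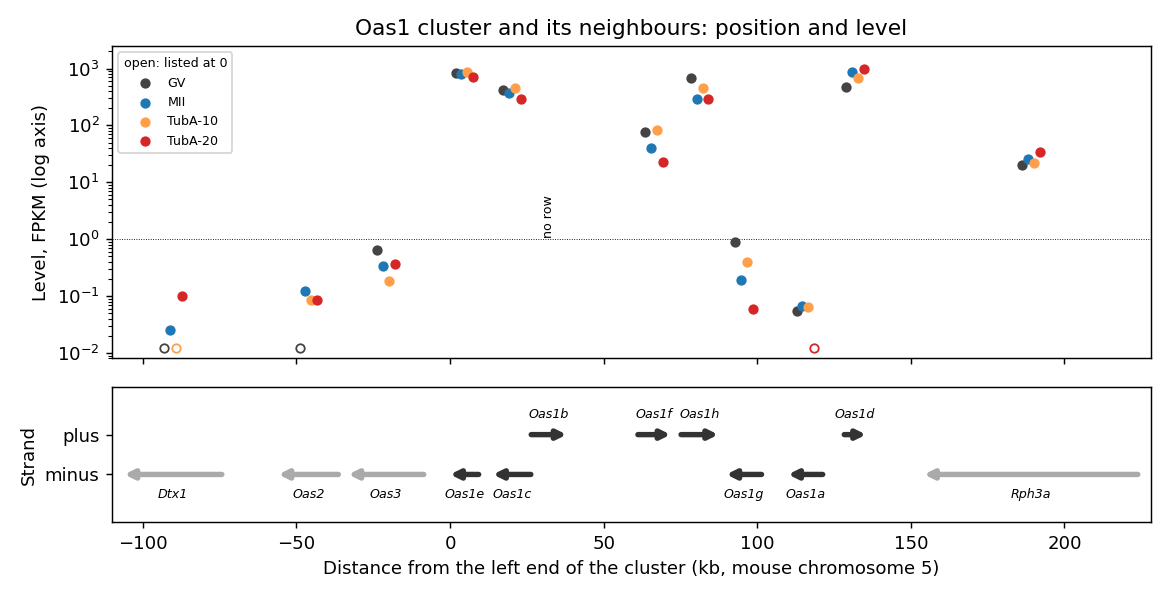
Levels (upper panel, FPKM on a log axis, 4 libraries as colored points) above a map of the *Oas1* cluster and its nearest neighbours (lower panel, arrows along the strand, distance in kb from the left end of the cluster), with open points for genes listed at 0. Points of a gene are set side by side for reading and not by position, members are dark, neighbours are grey, and *Oas1g* and *Oas1a*, under 1 FPKM, lie between *Oas1h* and *Oas1d*, which are at 288 FPKM or more.

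Promoters were available for *Oas1a*, *Oas1c*, *Oas1f*, *Oas1g* and *Oas1h* from RefSeq (GRCm38.p6). The 130 bases before the RefSeq start are given, 5′ to 3′ on the strand of the gene, for the near-silent *Oas1a* and for 3 abundant members, because the core of the interferon-stimulated response element, GAAANNGAA, occurs in some and not in others. Capitals mark matches on either strand. The windows are chr5:120907526-120907655 (minus) for *Oas1a*, chr5:120812515-120812644 (minus) for *Oas1c*, chr5:120847237-120847366 (plus) for *Oas1f* and chr5:120861292-120861421 (plus) for *Oas1h*.
Oas1a: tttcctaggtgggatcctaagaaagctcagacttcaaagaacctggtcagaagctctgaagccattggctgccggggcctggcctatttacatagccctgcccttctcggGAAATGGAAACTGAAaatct
Oas1c: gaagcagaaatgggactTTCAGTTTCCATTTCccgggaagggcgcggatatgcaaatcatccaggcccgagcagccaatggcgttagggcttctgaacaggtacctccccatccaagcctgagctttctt
Oas1f: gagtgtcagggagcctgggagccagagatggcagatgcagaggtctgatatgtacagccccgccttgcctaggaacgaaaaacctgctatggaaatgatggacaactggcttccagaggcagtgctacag
Oas1h: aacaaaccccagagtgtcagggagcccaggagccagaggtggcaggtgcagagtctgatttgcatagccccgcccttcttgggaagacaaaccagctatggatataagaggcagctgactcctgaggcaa

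The core was found in *Oas1a*, *Oas1c* and *Oas1g*, in each as 2 overlapping matches, and in neither *Oas1f* nor *Oas1h*. Of 32851 promoters of 300 bases (250 before and 50 after the start), 8.56% hold it. The overlapping matches form the same run of 15 bases, GAAATGGAAACTGAA, in all 3 members, and it occurs in 7 promoters of 5 symbols in the whole table, the others being *Apol9a* and *Apol9b*. It stands 20 to 6 bases before the start of *Oas1a* and 18 to 4 before that of *Oas1g*, on the strand of the gene. In *Oas1c* it is on the opposite strand, 113 to 99 bases before the start, and it ends 8 bases before the GENCODE start of *Oas1b*, which is transcribed away from *Oas1c* from a start 121 bases off. Of the abundant members with a promoter in the table, *Oas1c* alone holds the core, in this shared interval. The E-box CANNTG, the site of the oocyte factor Figla and its partners, was found in *Oas1f* and *Oas1h*, at 2 matches each, and in 72.3% of promoters. Its form CAGCTG was found in *Oas1h* alone (16.3% of promoters). The Nobox element TAATTG (8.00%) and TATAAA (13.6%) matched none of the 5. A match of letters is a description and not a bound site.

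The 3′ UTRs were searched for the cytoplasmic polyadenylation element, which governs the tails of stored oocyte mRNAs, after the levels had been seen. None of the 7 members with a row holds TTTTAT or TTTTAAT, which 50.4% and 27.4% of 20360 annotated 3′ UTRs hold. The 3′ UTRs of these members are 360 to 853 bases long, and the shares were not matched for length. In the last 100 bases alone, 13.5% and 4.89% of the annotated 3′ UTRs hold them.

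The other OAS genes and the 2-5A enzymes were at low levels. Among the 4 OAS relatives, *Oas2* and *Oas3*, the larger active synthetases, stayed under 1 FPKM. *Oasl1*, which restrains interferon production, was at 3.51 FPKM in GV and 1.02 in MII, with TubA-10 at 1.07 and TubA-20 at 0.919, and was the only relative past 2-fold, lower in each comparison with GV. *Oasl2* was at most 0.171 FPKM. *Abce1*, a ribosome recycling factor, was at 2.63, 3.76, 3.05 and 3.83 FPKM, and *Pde12*, which degrades 2-5A, was at 2.01, 2.04, 1.93 and 1.63 FPKM, both within 2-fold in all 6 comparisons.

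All 8 interferon genes on the list were listed at 0 in all 4 libraries. Of the 21 interferon-stimulated genes on the list, 20 had a row and 2 reached 1 FPKM. These were *Bst2*, which tethers budding virus, at 30.9, 47.0, 44.1 and 47.1 FPKM, and *Cmpk2*, a mitochondrial nucleotide kinase, at 12.5, 12.3, 15.6 and 9.90 FPKM. *Bst2* and *Cmpk2* were within 2-fold in all 6 comparisons, and the other 18 were too low for a ratio of FPKM + 1 to pass it. Each of the 5 abundant *Oas1* members except *Oas1f* in MII and TubA-20 was above all 20 of these interferon-stimulated genes in the same library.

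Some signalling genes and sensors were at higher levels. Of the 15 receptor and signalling genes, 10 reached 1 FPKM. Of the 4 receptor genes, *Ifnar1* alone did, at 6.14, 5.02, 4.90 and 7.33 FPKM. *Jak2* and *Jak1*, kinases of the receptors, were at 65.6 and 37.3 FPKM in GV and 115 and 61.7 FPKM in MII. *Irf3*, the factor that switches on interferon genes, was at 28.6, 10.1, 12.3 and 3.39 FPKM and was the 1 gene of the list that was lower past 2-fold in each comparison with GV, beside *Tbk1*, its kinase, which was higher past 2-fold in TubA-20 (6.60 against 15.6 FPKM). *Irf3* was also lower past 2-fold in TubA-20 against MII (-1.34) and against TubA-10 (-1.60). *Irf1* was at 82.4, 41.9, 41.1 and 53.1 FPKM, and *Socs1*, a feedback inhibitor of the kinases, was at 29.0, 19.4, 16.8 and 36.2 FPKM, higher past 2-fold in TubA-20 than in TubA-10. Of the 11 double-stranded RNA sensors and adaptors, 6 reached 1 FPKM. *Tarbp2*, a partner of Dicer, was at 69.5, 28.3, 41.7 and 10.9 FPKM, lower past 2-fold in MII and TubA-20 against GV and in TubA-20 against MII (-1.30) and TubA-10 (-1.84). *Adar*, which edits double-stranded RNA, was at 21.7, 14.5, 14.7 and 15.2 FPKM. *Tlr3*, named after its values were seen, was the 1 gene of that list that was higher past 2-fold against GV, at 0.935, 3.36, 3.51 and 4.80 FPKM.

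**Figure D5:**
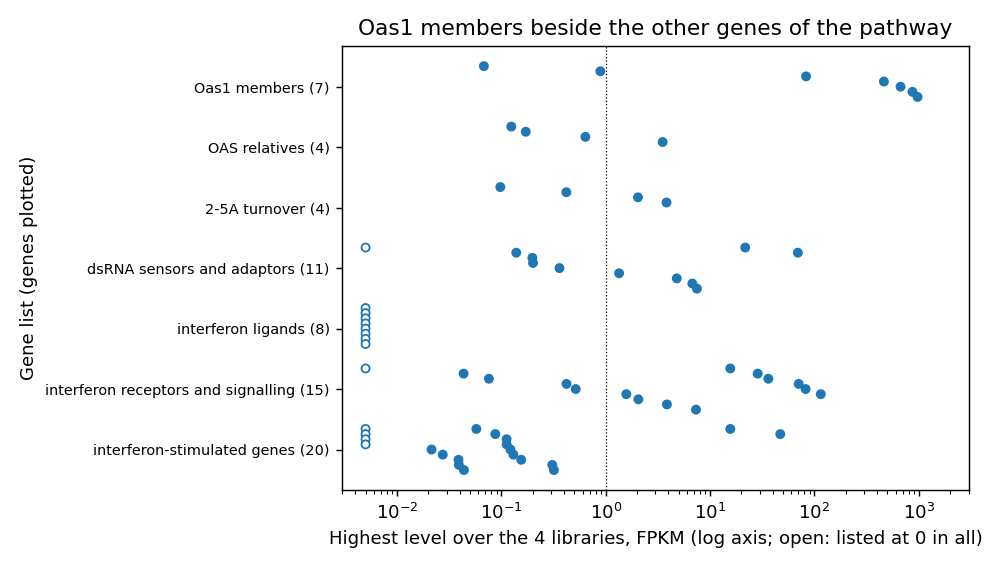
Highest level of each gene over the 4 libraries (FPKM, log axis) for the *Oas1* members with a row and for 6 lists of pathway genes, with the number of genes plotted in brackets, open points for genes listed at 0 in all libraries and the dotted line at 1 FPKM. The 8 interferon genes are all open, 2 of 20 interferon-stimulated genes lie right of the line, and 5 *Oas1* members lie at 83.2 FPKM or more.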

How the data were processed

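RNA-seq libraries were made from oligo(dT)-selected, strand-specific RNA and sequenced as paired reads of 100 bases. Expression was deposited by the authors as FPKM, computed with cufflinks under default options on mm10, and the submitters' processing notes name STAR 2.5.0 and Cuffdiff 2.2.1. Labels and methods differ on the extraction kit. The study states total reads per library, which are not used here, and FPKM values do not give the fragments behind a gene, so no counting interval is given.

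Of 21959 entries, 21794 matched GENCODE vM21 (GRCm38) by identifier. Log2 ratios of FPKM + 1 were computed for 6 pairs of libraries without other scaling or filter, with a 2-fold threshold and no test. The members, gene lists and motifs were chosen with earlier results of these data known, and the background of genes with at least 10 FPKM was added after the data were examined. Genes open to naming were the members, the OAS relatives, *Abce1*, *Pde12*, other list genes with at least 5 FPKM in a library (not all of which are named), 3 coding neighbours on each side and the 5 genes most like each member, and 1 listed gene is not reported here. *Tlr3* and markers under that level were named after their values were seen. Coding sequences were aligned with MAFFT 7.526. Scripts ran in Python 3.11.15 (numpy 2.4.6, pandas 2.3.3) and were tested on simulated data. Alternatives were pseudocounts, a filter on low values, scalings and the threshold.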

Additional observations from a re-analysis of the deposited data

Results flagged for a closer look

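*Oas1f* stood on opposite sides of MII at the 2 doses of tubastatin A. Its level was 39.6 FPKM in MII, beside 83.2 with TubA-10 and 22.3 with TubA-20, so that the log2 ratio to MII was 1.05 at 10 µM and -0.80 at 20 µM. The difference between the doses was not tested, since each condition was 1 library, and both ratios share the MII library.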

How the results depend on the processing

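The folds of the 5 abundant members kept their side of 2-fold and moved by less than 1.5 times in 146 of 150 recomputed values, and no called member changed sign, while small log2 ratios could change sign, as given beside them. The 4 exceptions lie near the threshold: *Oas1f* in MII against GV (-1.08) and *Oas1d* in TubA-20 against GV (0.84) when the median log2 change is set to 0, and *Oas1d* in MII against GV (1.04) and *Oas1f* in TubA-10 against MII (0.998) with equal FPKM sums. *Oas1a* and *Oas1g* account for 15 of the 19 ratios that moved, all with smaller pseudocounts. The summed level stayed within these limits in all 30. Counts of members past 2-fold that moved by over 1.5 times were these. MII against GV went from 1 to 2 with a pseudocount of 0.1 or 0.01, with the median set to 0 and with equal sums, and to 0 at 3-fold. TubA-10 against GV went from 0 to 1, and TubA-20 against GV from 3 to 5, with a pseudocount of 0.01, and the latter to 1 at 3-fold, with smaller moves to 4 (pseudocount of 0.1) and 2 (median set to 0). TubA-10 against MII went from 1 to 2 with a pseudocount of 0.01 and to 0 with equal sums or at 3-fold. TubA-20 against MII went from 0 to 2 with a pseudocount of 0.01. TubA-20 against TubA-10 went from 1 to 2 with a pseudocount of 0.1 and to 3 with 0.01. With a pseudocount of 0.1, 3 of the 5 most alike genes were shared for *Oas1c*, 1 for *Oas1d* and 1 for *Oas1h*. The ISRE core was in 7.13% of promoters when only the 250 bases before the start were read, and the matches of the members were the same in number. No paired analysis was possible because each condition is 1 library, and leaving out a library removes its condition. Without replicates the error of every ratio is unknown, and without counts the fragments behind *Oas1a* and *Oas1g* are too.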
